A study of Homo sapiens with 9 samples.

Results

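The 43 G2/M and mitosis genes are the cyclins, kinases, kinesins, kinetochore proteins, spindle proteins and cytokinesis proteins that a dividing cell makes late in its cycle. They were taken by gene symbol from a table of 26475 rows, and all 43 were found and passed the filter on low counts. RNA was measured by RNA-seq in MDA-MB-231 cells, an established line from a breast adenocarcinoma of the triple-negative class. Control cells were stably transduced with the empty lentiviral plasmid pLKO.1, and ACSL4 knockdown cells with pLKO.1-shACSL4, a hairpin RNA against ACSL4, an enzyme that attaches long-chain polyunsaturated fatty acids to coenzyme A. A further group was control cells given PRGL493, an inhibitor of ACSL4, with no dose, exposure time or vehicle stated in the labels. Each group has 3 libraries, which the titles number as replicates without saying whether each is a separate batch of cells. All 9 libraries share 1 line, 1 plasmid backbone and stable transduction. The error terms below hold only the spread among replicates of these cells. The labels name 1 hairpin construct and do not say whether the cells are clones.

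In a cycling cell, cyclin A2 and then the B-type cyclins bind CDK1, CDC25C removes the phosphates that hold CDK1 inactive, and Aurora and Polo-like kinases build the spindle. The spindle checkpoint holds the anaphase-promoting complex (APC/C) in check until every kinetochore is attached, after which CDC20 and the ubiquitin-conjugating enzyme UBE2C direct the destruction of securin (PTTG1) and cyclin B. Most of these genes are transcribed in the same late window of the cycle: the DREAM complex represses them in resting and G1 cells, and the MuvB core with B-MYB (MYBL2) and FOXM1 activates them in G2, through a promoter element named the cell cycle genes homology region (CHR), which often lies near CCAAT boxes bound by NF-Y.

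Promoter sequences, 250 bases before to 50 bases after the start of the transcript, were on hand from RefSeq (GRCh38.p14) for 37 of the 43 genes. A CHR, searched as TTTGAA or TTCGAA on both strands, was present in the window of 29 of the 37 (78.4%), against 19.5% of 27305 genes with such a window. A CCAAT box, searched as CCAAT on both strands, was present in 31 (83.8%, against 39.7%), and both elements in 25 (67.6%, against 7.85%). An E2F-type core, searched on both strands as the letters TTCCCGC, the letters TTCGCGC, the letters TTGCCGC or the letters TTGGCGC, was present in 12 (32.4%, against 15.3%). Of 39 G1/S and DNA replication genes searched the same way, 7.69% held a CHR and 82.1% an E2F-type core. These letters can also match where no factor binds, and the matches are a description of the windows. Other forms of these elements were not searched, so a window without a match may still hold one. In the windows of the mitosis genes the median CHR match began 28 bases before the start and the median CCAAT match 82 bases before it. Windows are shown for 5 genes on which the results turn: HJURP and KIF4A, which had the smallest adjusted p in the knockdown, CDC20 and PTTG1, which rose in the knockdown and lay below every control library under PRGL493, and INCENP, which was higher under PRGL493 and not in the knockdown. Each run is the 200 bases before the start, 5′ to 3′ on the strand of the gene, in lower case with CHR and CCAAT matches of either strand in capitals.

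The runs lie at chr2:233854536-233854735 (minus strand) for HJURP, chrX:70289904-70290103 (plus strand) for KIF4A, chr1:43358781-43358980 (plus strand) for CDC20, chr5:160421655-160421854 (plus strand) for PTTG1 and chr11:62123811-62124010 (plus strand) for INCENP.
HJURP: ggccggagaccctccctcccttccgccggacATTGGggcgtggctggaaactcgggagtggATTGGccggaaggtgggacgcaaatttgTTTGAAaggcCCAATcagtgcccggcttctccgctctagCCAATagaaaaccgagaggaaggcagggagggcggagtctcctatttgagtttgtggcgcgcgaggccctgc
KIF4A: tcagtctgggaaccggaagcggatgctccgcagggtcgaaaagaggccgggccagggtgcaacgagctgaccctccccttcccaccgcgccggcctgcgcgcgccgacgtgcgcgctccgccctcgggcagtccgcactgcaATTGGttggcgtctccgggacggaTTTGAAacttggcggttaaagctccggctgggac
CDC20: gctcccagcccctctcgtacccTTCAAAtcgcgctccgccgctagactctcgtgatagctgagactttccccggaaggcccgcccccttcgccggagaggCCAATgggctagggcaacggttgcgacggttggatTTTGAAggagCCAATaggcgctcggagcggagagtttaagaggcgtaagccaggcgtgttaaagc
PTTG1: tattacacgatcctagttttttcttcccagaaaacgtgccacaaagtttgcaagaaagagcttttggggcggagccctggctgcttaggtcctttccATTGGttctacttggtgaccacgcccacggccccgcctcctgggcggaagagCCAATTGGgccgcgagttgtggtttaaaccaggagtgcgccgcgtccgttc
INCENP: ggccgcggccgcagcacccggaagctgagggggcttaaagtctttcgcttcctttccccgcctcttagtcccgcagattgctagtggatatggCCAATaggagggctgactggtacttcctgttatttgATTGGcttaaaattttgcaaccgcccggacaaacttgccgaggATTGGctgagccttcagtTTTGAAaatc
HJURP had 1 CHR, which began 111 bases before the start, among 4 CCAAT matches. CDC20 had 2 CHR matches, at 178 and 65 bases before the start, and KIF4A 1 at 34 bases. INCENP had 1 CHR at 10 bases and 3 CCAAT matches. Neither TTTGAA nor TTCGAA was found in the window of PTTG1, and other forms of the CHR were not searched there. Of its 3 CCAAT matches, 2 overlap on opposite strands.

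Library totals ran from 28673940 to 43027217 counts, and the least covered of the 43 genes, CENPA, had 274 counts or more in every library. Values below are CPM, counts relative to the library total, with totals scaled by edgeR's TMM factors, fold changes are log2, and a gene is called higher or lower at a Benjamini-Hochberg adjusted p below 0.05 over 14135 genes in edgeR's quasi-likelihood test. ACSL4 itself stood at 342, 339 and 366 CPM in control, 29.5, 23.7 and 27.6 CPM in knockdown and 333, 349.9 and 360.0 CPM in PRGL493 libraries. The mesenchymal markers VIM, CD44, AXL and CAV1 were abundant in all 9 libraries, with lows of 1611, 1257, 1191 and 615 CPM, and ESR1 and PGR reached at most 0.031 and 0.15 CPM, while ERBB2 lay between 68.1 and 104 CPM. Of markers of blood and endothelial cells, PTPRC reached at most 0.079 CPM, CD3E 0.026 CPM and PECAM1 3.11 CPM, and HBB was at 0. Knockdown replicate 2 stood apart by transcript length: genes with a transcript of up to 2012 bases had a median log2 deviation of 0.17 from their mean over all libraries there, and genes above 4818 bases one of -0.17, where the other 8 libraries lay between -0.08 and 0.06. Calls of the 43 genes that changed without that library are given with and without it. Sizes of other changes are from all 9 libraries unless stated, and some were smaller and others larger without it. In the knockdown AURKB, for example, went from 0.50 to 0.41 and ANLN from 0.29 to 0.33.

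In control cells the 43 genes took 0.463, 0.468 and 0.483% of all counts, in knockdown cells 0.570, 0.527 and 0.547%, and in PRGL493 cells 0.503, 0.498 and 0.506%. The 3 groups did not overlap, and the knockdown group was the highest. In RNA from a whole culture, more cells in G2 and mitosis and more RNA per such cell cannot be told apart. Per kilobase of transcript, the most abundant in control cells were UBE2C at 119 ± 4.10 CPM per kilobase (SD, n = 3), TOP2A at 97.3 ± 2.40, CCNB1 at 84.8 ± 0.687 and TPX2 at 82.3 ± 0.773. CCNB1 and TPX2 differed by more than their SDs. HMMR was the least abundant at 5.60 ± 0.684 CPM per kilobase, followed by CENPA at 7.56 ± 0.0587 and CDC25C at 7.74 ± 0.444, and the last 2 were closer to each other than the SD of CDC25C. Of the 43 genes, 13 overlap another gene of the table on the genome, and whether counting used the strand is not given in the sources used here, so reads of CCNA2 and EXOSC9, of PLK1 and ERN2, or of HMMR and its antisense RNA, for example, may not have been separated.

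**Figure D1:**
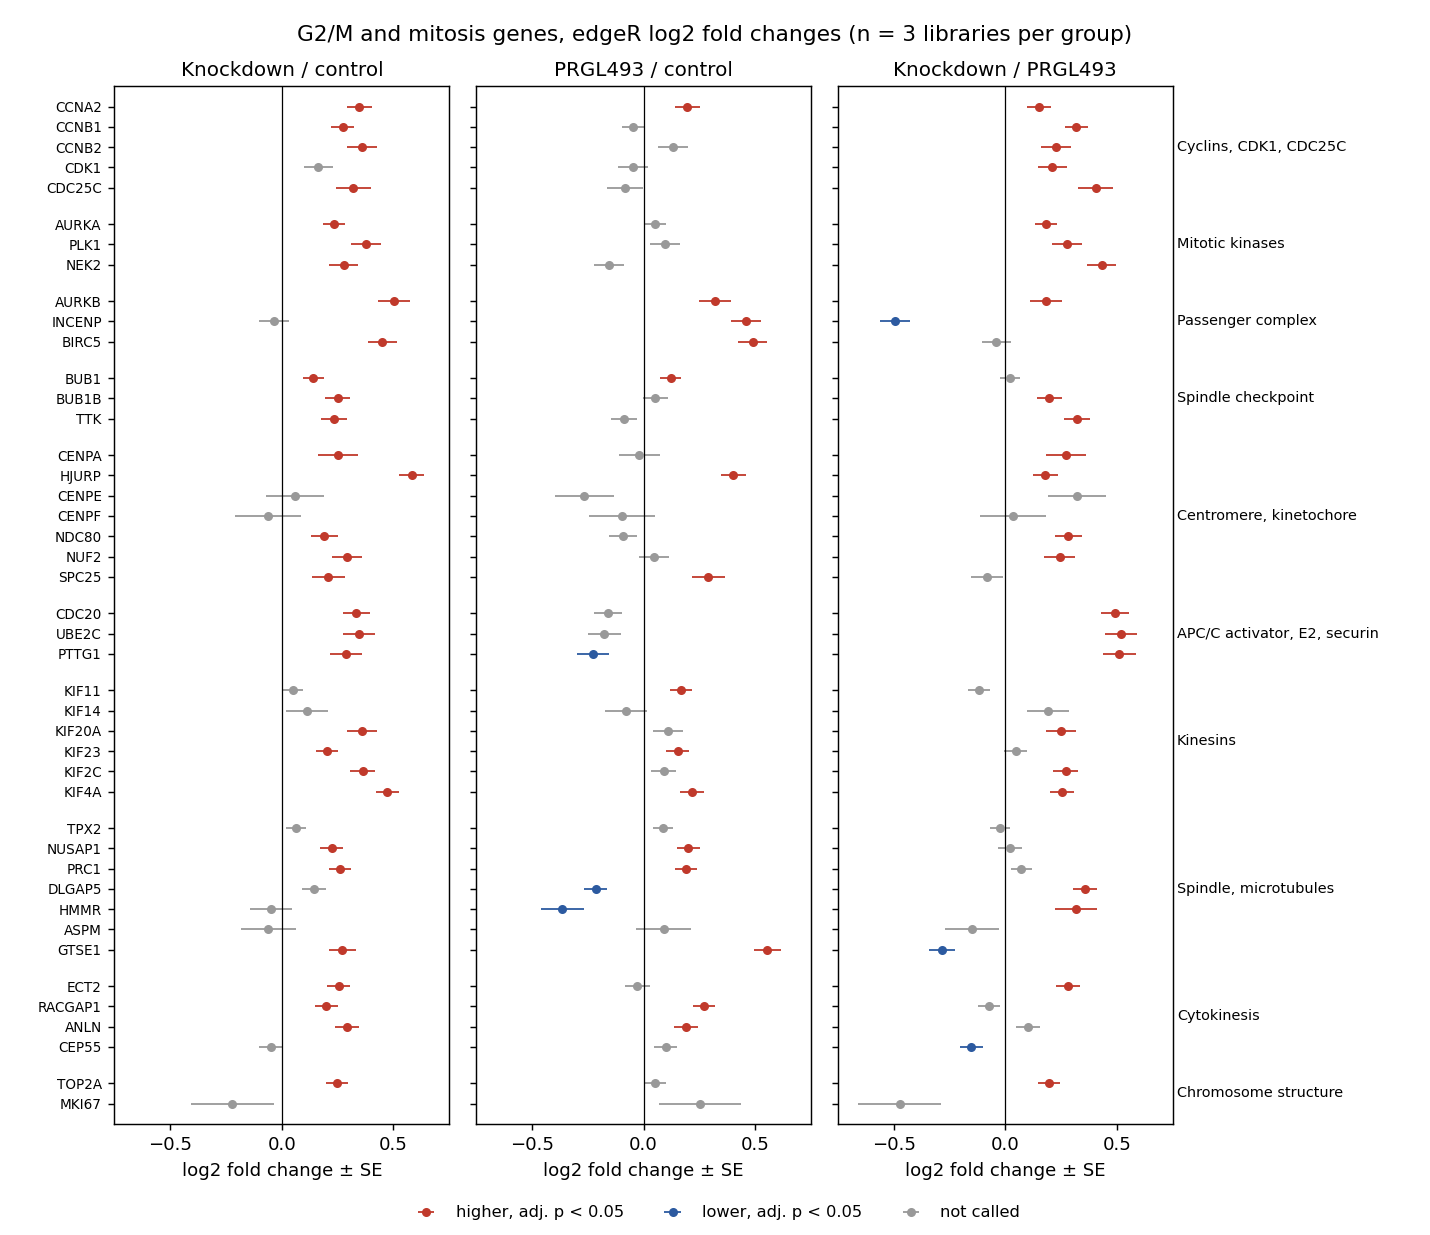
Log2 fold change ± SE from edgeR for each of the 43 genes (rows, grouped by role); the panels set the knockdown against control, PRGL493 against control, and the knockdown against PRGL493, with 3 libraries per group; colours mark genes called higher (red), lower (blue) or not called (grey) at an adjusted p below 0.05. Of the 43 genes, 31 are called higher and 0 lower in the first panel, 15 higher and 3 lower in the second, and 25 higher and 3 lower in the third.

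The question put by the knockdown was how loss of ACSL4 RNA changes the cell's RNA. In the knockdown, 31 of the 43 genes rose, 0 fell and 12 were not called, against a background of 14.7% of all tested genes called higher and 15.3% called lower (30.1% either way). Their median log2 fold change was 0.25, against 0.00 over all tested genes, and none reached 2-fold. In 33 of the 43 all 3 knockdown libraries lay above all 3 control libraries (background 20.8%), and in 0 all lay below (background 21.2%). At an unadjusted p under 0.05 edgeR gave 33 higher and 0 lower, and DESeq2 called 30 higher and 0 lower. Leaving out each of the 9 libraries in turn, 27 of the 31 calls held in every fit.

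Among the cyclins and their kinase, 4 of 5 rose. CCNA2 stood at 118, 113 and 123 CPM in control, 151, 158 and 143 CPM in knockdown and 130.4, 137 and 139 CPM in PRGL493 libraries. All 3 knockdown libraries lay above all control libraries, with a log2 fold change of 0.35 ± 0.06 (SE, adjusted p = 0.00017). CCNB1, the B-type cyclin of mitotic entry, rose by 0.27, CCNB2 by 0.36 and CDC25C, the phosphatase that activates CDK1, by 0.32. CDK1 itself was at 99.4, 99.97 and 109 CPM in control and 115, 123 and 108 CPM in knockdown libraries, which overlapped, and was not called at 0.16 (adjusted p = 0.066); without knockdown replicate 3 its adjusted p was 0.045. All 3 mitotic kinases rose. PLK1 stood at 55.4, 56.04 and 58.2 CPM in control, 67.2, 81.3 and 71.7 CPM in knockdown and 62.5, 60.7 and 58.1 CPM in PRGL493 libraries. PLK1, the Polo-like kinase of spindle assembly and mitotic entry, was higher in every knockdown library than in any control library, by 0.38 ± 0.07 (SE, adjusted p = 5e-04). AURKA, the kinase of the spindle poles, rose by 0.23, and NEK2, the kinase that separates the centrosomes, by 0.28 ± 0.07 (SE, adjusted p = 0.0042) from 42.7, 43.2 and 47.3 CPM in control to 52.4, 57.98 and 51.1 CPM in knockdown libraries.

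Of the chromosomal passenger complex, which corrects wrong attachments of chromosomes to the spindle, 2 of 3 rose. AURKB stood at 28.9, 29.2 and 29.1 CPM in control, 38.1, 46.4 and 39.2 CPM in knockdown and 36.9, 35.5 and 36.7 CPM in PRGL493 libraries. AURKB, its kinase, did not overlap between the knockdown and control and rose by 0.50 ± 0.07 (SE, adjusted p = 6.4e-05). BIRC5 stood at 63.1, 59.2 and 59.8 CPM in control, 74.9, 90.3 and 83.3 CPM in knockdown and 85.4, 87.6 and 82.4 CPM in PRGL493 libraries. BIRC5, which encodes survivin, rose by 0.45 ± 0.07 (SE, adjusted p = 7.7e-05). INCENP, the scaffold of the complex, overlapped between the groups, at 54.5, 53.1 and 50.9 CPM in control and 48.4, 48.8 and 57.6 CPM in knockdown libraries, and was not called at -0.03 (adjusted p = 0.74). All 3 spindle checkpoint kinases or pseudokinases rose: BUB1B, which encodes BUBR1, an inhibitor of APC/C, from 59.3, 58.8 and 61.4 to 73.8, 67.6 and 72.02 CPM (with 63.7, 63.1 and 59.4 CPM under PRGL493), by 0.25 ± 0.06 (SE, adjusted p = 0.003), TTK, the kinase that starts the checkpoint signal, by 0.23, and BUB1, which brings checkpoint proteins to the kinetochore, from 168, 175 and 170.3 to 190.2, 194 and 182 CPM, by 0.14 ± 0.05 (SE, adjusted p = 0.03). The BUB1 call was lost without control replicate 1, 2 or 3, with adjusted p up to 0.11.

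At the centromere and kinetochore, 5 of 7 genes rose. The largest change of the 43 was that of HJURP, the chaperone that deposits the centromeric histone CENPA. HJURP stood at 37.5, 35.6 and 36.3 CPM in control, 55.5, 52.3 and 55.8 CPM in knockdown and 48.96, 49.2 and 46.4 CPM in PRGL493 libraries. The 3 groups did not overlap, and the knockdown rise was 0.58 ± 0.06 (SE, adjusted p = 9.7e-07). CENPA rose by 0.25 ± 0.09 (SE, adjusted p = 0.042), NDC80 by 0.19 ± 0.06 (SE, adjusted p = 0.026), NUF2, its partner in the outer kinetochore, by 0.29 (adjusted p = 0.0043), and SPC25, of the same complex, by 0.21 ± 0.07 (SE, adjusted p = 0.04). The calls of CENPA, NDC80 and SPC25 did not hold in every fit that left out 1 library. That of CENPA was lost without control replicate 1, 2 or 3, knockdown replicate 2 or 3 or PRGL493 replicate 1 (adjusted p up to 0.12). That of NDC80 was lost without control replicate 1 or 2 or knockdown replicate 1 (up to 0.10), and that of SPC25 without any 1 control or PRGL493 library or knockdown replicate 2 (up to 0.16). The kinesin CENPE and CENPF, a large kinetochore protein, were not called, at 0.06 (adjusted p = 0.78) and -0.06 (adjusted p = 0.79).

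All 3 genes around APC/C rose. CDC20 stood at 87.3, 86.8 and 85.8 CPM in control, 99.9, 119 and 108 CPM in knockdown and 77.8, 75.2 and 79.9 CPM in PRGL493 libraries. CDC20 activates APC/C at anaphase, and its knockdown libraries were all above control, by 0.33 ± 0.06 (SE, adjusted p = 0.00068). UBE2C stood at 97.6, 102 and 104 CPM in control, 113, 144 and 131 CPM in knockdown and 94.2, 87.96 and 87.4 CPM in PRGL493 libraries. UBE2C passes ubiquitin to the targets of APC/C and rose by 0.34 ± 0.07 (SE, adjusted p = 0.0019). PTTG1 stood at 71.8, 65.6 and 72.2 CPM in control, 76.5, 94.8 and 84.4 CPM in knockdown and 62.4, 57.1 and 59.6 CPM in PRGL493 libraries. PTTG1 is securin, the inhibitor of separase, and rose by 0.29 ± 0.07 (SE, adjusted p = 0.0063). In each of the 3, knockdown replicate 2 was the highest of the 9 libraries, and all 3 have transcripts shorter than 2000 bases, the class that stood high in that library. Without it CDC20 rose by 0.26 (adjusted p = 0.00029), UBE2C by 0.26 (adjusted p = 0.0010) and PTTG1 by 0.20 (adjusted p = 0.0092).

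Of the 6 kinesins, 4 rose. KIF4A stood at 80.8, 77.1 and 81.5 CPM in control, 113, 108 and 111 CPM in knockdown and 95.3, 89.5 and 93.3 CPM in PRGL493 libraries. The 3 groups did not overlap, and KIF4A, a motor of chromosome arms and the spindle midzone, rose by 0.47 ± 0.05 (SE, adjusted p = 4e-06). KIF2C, which takes microtubules apart at the centromere, rose by 0.36, KIF20A, a motor of cytokinesis, by 0.36, and KIF23, the motor of centralspindlin, by 0.20. KIF11, the motor that separates the spindle poles, and KIF14 were not called, at 0.05 (adjusted p = 0.5) and 0.11 (adjusted p = 0.39). Of 7 genes of the spindle and its microtubules, 3 rose. PRC1 stood at 141, 146 and 149.7 CPM in control, 168, 179 and 176 CPM in knockdown and 167, 165 and 165 CPM in PRGL493 libraries. PRC1, which bundles midzone microtubules, rose by 0.26 ± 0.05 (SE, adjusted p = 0.00071). NUSAP1, a microtubule-binding protein, rose by 0.22, and GTSE1, a microtubule-associated protein of G2 and mitosis, by 0.27 ± 0.06 (SE, adjusted p = 0.0025). Not called were TPX2, which activates AURKA, at 0.07 (adjusted p = 0.3), DLGAP5, a stabiliser of spindle fibres, at 0.14 (adjusted p = 0.051), HMMR at -0.05 (adjusted p = 0.74) and ASPM, a spindle pole protein, at -0.06 (adjusted p = 0.76). DLGAP5 was called higher without knockdown replicate 2 or without replicate 3, with adjusted p of 0.036 at the lowest.

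In cytokinesis, 3 of 4 genes rose. ANLN stood at 316, 322 and 337 CPM in control, 427, 375 and 389.9 CPM in knockdown and 364, 375 and 372 CPM in PRGL493 libraries. Anillin, the product of ANLN, anchors the contractile ring, and its RNA rose by 0.29 ± 0.05 (SE, adjusted p = 0.00061). ECT2, which activates the ring's GTPase RhoA, rose by 0.25, and RACGAP1, the partner of KIF23, by 0.20 ± 0.05 (SE, adjusted p = 0.0066). CEP55, a scaffold of the final cut between daughter cells, was not called at -0.05 (adjusted p = 0.49). TOP2A stood at 548, 558 and 575 CPM in control, 703, 634 and 660.4 CPM in knockdown and 574, 571 and 598 CPM in PRGL493 libraries. TOP2A, the topoisomerase that untangles sister chromatids, rose by 0.25 ± 0.05 (SE, adjusted p = 0.0013) without overlap. MKI67 stood at 266, 289 and 289.6 CPM in control, 285, 169.8 and 270.2 CPM in knockdown and 356, 329 and 321 CPM in PRGL493 libraries. MKI67, which encodes the proliferation marker Ki-67, a coat of mitotic chromosomes, was not called at -0.22 ± 0.19 (SE, adjusted p = 0.42), and its lowest value of the 9 was that of knockdown replicate 2.

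**Figure D2:**
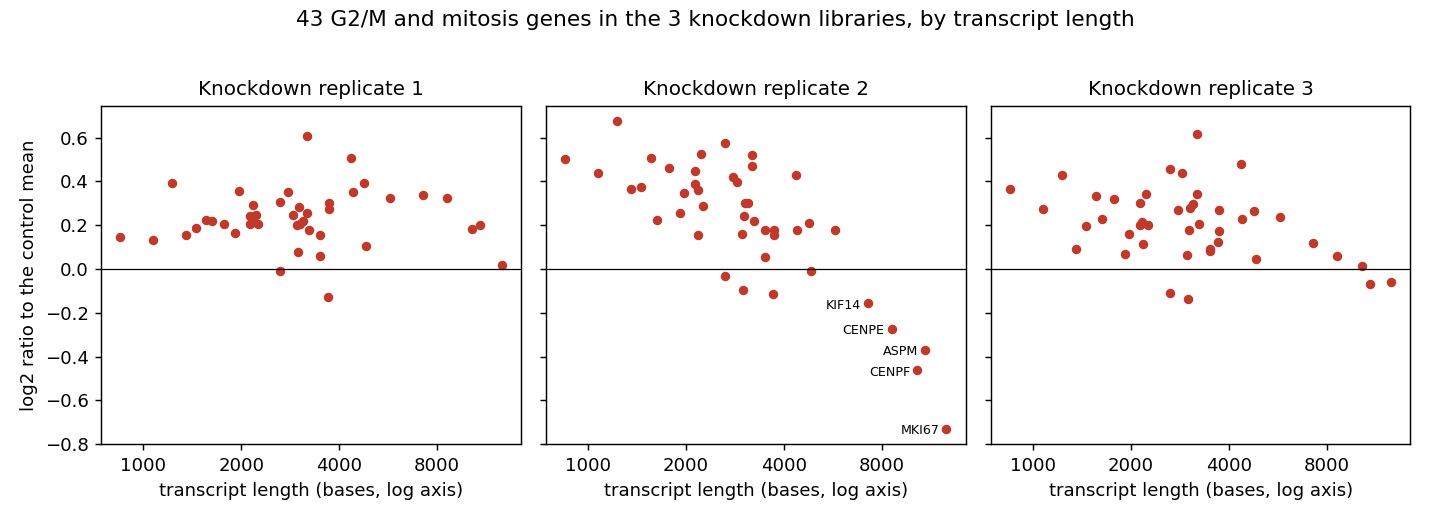
Log2 ratio of each of the 43 genes to its control mean (vertical axis) against the length of its transcript in bases (log axis), in each of the 3 knockdown libraries; the 5 genes above 7000 bases are named in the panel of replicate 2. In replicate 2 these 5 points lie between -0.73 and -0.16, while in replicate 1 they lie between 0.02 and 0.34.

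The 5 longest transcripts, above 7000 bases, were KIF14, CENPE, CENPF, ASPM and MKI67, and none of them was called in any of the 3 comparisons. These length classes were chosen after the values were seen. In knockdown replicates 1, 2 and 3 the median log2 ratio of these 5 to the control mean was 0.20, -0.37 and 0.02. For the 28 genes from 2000 to 7000 bases it was 0.24, 0.23 and 0.22, and for the 10 shorter genes 0.20, 0.41 and 0.25. So the middle class had nearly the same median in each knockdown library, while the longest and shortest classes of replicate 2 differed from those of the other two. Without knockdown replicate 2, KIF14 was called higher in the knockdown at 0.23 (adjusted p = 0.0042) and CENPE at 0.20 (adjusted p = 0.045), while MKI67 moved from -0.22 to -0.02 (adjusted p = 0.80). CENPF and ASPM changed sign without it, to 0.10 (adjusted p = 0.16) and 0.07 (adjusted p = 0.47), and were not called either way. Without that library 32 of the 43 genes were called higher, with a median of 0.23, and 29 of these were among the 31.

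The second comparison asked what the ACSL4 inhibitor does in control cells. Under PRGL493, 15 of the 43 genes rose, 3 fell and 25 were not called, against 21.4% of all tested genes called higher and 20.4% called lower (41.8% either way), so that the 18 called genes were about as frequent as among all genes. The median log2 fold change was 0.09, against 0.01 over all tested genes. All 3 PRGL493 libraries lay above all control libraries in 21 genes (background 30.1%) and below them in 8 (background 27.2%). At an unadjusted p under 0.05, 15 were higher and 6 lower. Leaving out each library in turn, 11 of the 15 and 2 of the 3 calls held in every fit. The number called lower rose to 7 without knockdown replicate 1 or without knockdown replicate 2, which are not in this contrast but enter the shared spread, the filter and the scaling.

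All 3 genes of the chromosomal passenger complex rose under PRGL493: BIRC5 by 0.49 ± 0.07 (SE, adjusted p = 1.8e-05), INCENP by 0.46 ± 0.07 (SE, adjusted p = 4.7e-05) and AURKB by 0.32 ± 0.07 (SE, adjusted p = 0.0019). INCENP stood at 54.5, 53.1 and 50.9 CPM in control, 48.4, 48.8 and 57.6 CPM in knockdown and 73.96, 74.1 and 69.8 CPM in PRGL493 libraries. Every PRGL493 library was above every other library for INCENP. The largest rise was that of GTSE1. GTSE1 stood at 28.9, 28.2 and 29.1 CPM in control, 33.4, 35.3 and 35.2 CPM in knockdown and 43.8, 41.4 and 41.3 CPM in PRGL493 libraries. The 3 groups of GTSE1 did not overlap, with PRGL493 the highest, and the rise was 0.56 ± 0.06 (SE, adjusted p = 1.5e-06). HJURP rose by 0.40 ± 0.06 (SE, adjusted p = 3.4e-05) and SPC25 by 0.29 ± 0.07 (SE, adjusted p = 0.0046), while the other 5 centromere and kinetochore genes were not called: CENPA at -0.02, CENPE at -0.27, CENPF at -0.10, NDC80 at -0.09 and NUF2 at 0.05. CENPE was called lower without knockdown replicate 1 or 2, with an adjusted p of 0.0030 at the lowest.

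Of the cyclin group only CCNA2 was called, at 0.20 ± 0.06 (SE, adjusted p = 0.0086), and it was not called without control replicate 2 (adjusted p = 0.057). CCNB1, CCNB2, CDK1 and CDC25C were at -0.05, 0.13, -0.05 and -0.08; CCNB2 was called higher without knockdown replicate 2 (adjusted p = 0.044). None of the 3 mitotic kinases was called: AURKA was at 0.05 (adjusted p = 0.45), PLK1 at 0.10 (adjusted p = 0.27) and NEK2 at -0.16 (adjusted p = 0.07). NEK2 stood at 39.6, 38.4 and 41.5 CPM in the PRGL493 libraries, all below its control libraries, and was called lower without knockdown replicate 1 or 2 (adjusted p of 0.022 at the lowest). In the checkpoint BUB1 was called at 0.12 ± 0.05 (SE, adjusted p = 0.047), with 186, 185 and 187 CPM in the PRGL493 libraries, and lost the call without any 1 control or PRGL493 library or knockdown replicate 3 (adjusted p up to 0.14). BUB1B and TTK were not called, at 0.05 and -0.09.

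Of the 3 genes around APC/C, 1 fell and 2 were not called. CDC20, UBE2C and PTTG1 were each below control in all 3 PRGL493 libraries, as were 27.2% of all tested genes. PTTG1 fell, at -0.23 ± 0.07 (SE, adjusted p = 0.019), and lost the call without control replicate 1 or 3 or PRGL493 replicate 2 (adjusted p up to 0.078). CDC20 was at -0.16 (adjusted p = 0.05) and UBE2C at -0.18 (adjusted p = 0.064), and both were called lower without knockdown replicate 1 or 2 (adjusted p of 0.0079 and 0.0078 at the lowest). The other 2 genes that fell were both spindle genes, DLGAP5 at -0.22 ± 0.05 (SE, adjusted p = 0.0039) and HMMR at -0.36 ± 0.10 (SE, adjusted p = 0.006). HMMR stood at 17.1, 14.5 and 18.6 CPM in control, 17.7, 15.6 and 15.2 CPM in knockdown and 12.01, 13.4 and 13.7 CPM in PRGL493 libraries. HMMR encodes the hyaluronan receptor RHAMM, which also binds spindle microtubules, and its PRGL493 libraries were all below its control libraries.

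Of the kinesins KIF4A rose by 0.22 ± 0.05 (SE, adjusted p = 0.0031), KIF11 by 0.17 ± 0.05 (SE, adjusted p = 0.012) and KIF23 by 0.15 ± 0.05 (SE, adjusted p = 0.024). KIF11 lost its call without PRGL493 replicate 2 (adjusted p = 0.056), and KIF23 without control replicate 1 or 3 or any 1 PRGL493 library (up to 0.086). KIF14, KIF20A and KIF2C were not called, at -0.08, 0.11 and 0.09. Of the spindle genes NUSAP1 rose by 0.20 and PRC1 by 0.19 ± 0.05 (SE, adjusted p = 0.0049), while TPX2 and ASPM were not called, at 0.09 and 0.09. In cytokinesis RACGAP1 rose by 0.27 ± 0.05 (SE, adjusted p = 4e-04) and ANLN by 0.19 ± 0.05 (SE, adjusted p = 0.0086). RACGAP1 stood at 70.5, 68.04 and 68.3 CPM in control, 77.9, 80.1 and 79.5 CPM in knockdown and 83.1, 84.9 and 81.6 CPM in PRGL493 libraries. For RACGAP1 both treated groups were above control without overlap. ECT2 and CEP55 were not called, at -0.03 and 0.10. TOP2A was at 0.05 (adjusted p = 0.42). MKI67 had PRGL493 libraries all above control, at 0.25 ± 0.19 (SE, adjusted p = 0.32); without knockdown replicate 2, which is not in this contrast but enters the joint fit, it was called higher at the same 0.25 (adjusted p = 3.9e-05).

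**Figure D3:**
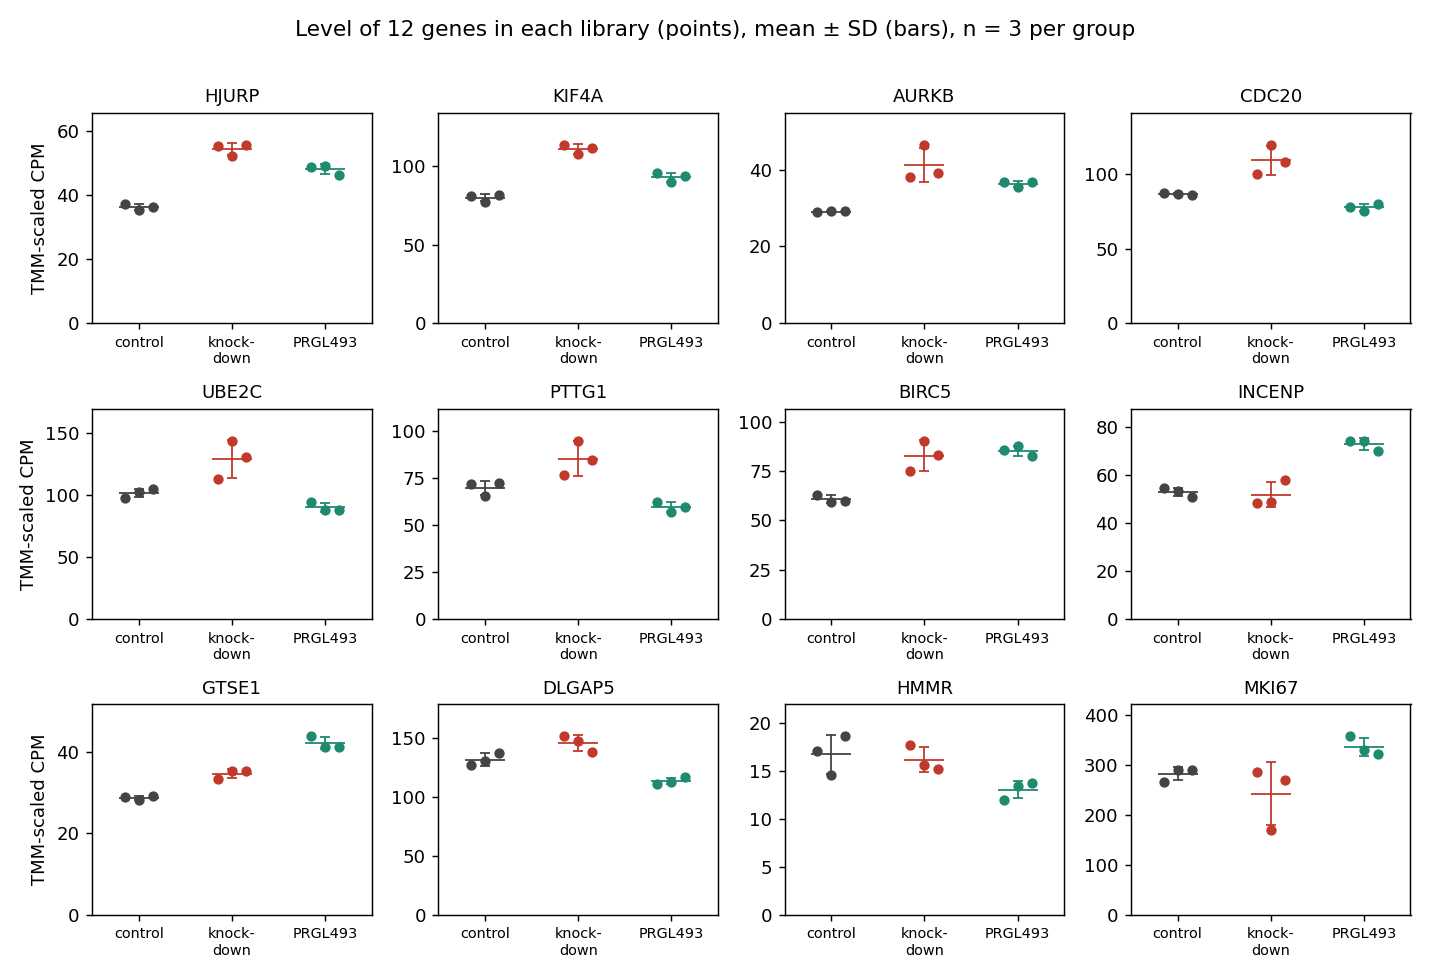
CPM of single genes in each of the 9 libraries (points, 3 per group) for 12 of the genes, with the mean ± SD of each group (bars), on linear axes that start at 0. CDC20 and PTTG1 are highest in the knockdown and lowest under PRGL493, INCENP and GTSE1 are highest under PRGL493, and the groups of HJURP and KIF4A lie in the order control, PRGL493, knockdown.

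The 2 treatments share their control libraries, so their values are given side by side and the difference between them was tested directly, knockdown against PRGL493, in which no control library enters the difference. Of the 43 genes 25 were higher in the knockdown than under PRGL493, 3 were lower and 15 were not called, against a background of 24.4% called higher and 26.0% called lower (50.4% either way). The median was 0.20, against -0.01 over all tested genes. The knockdown libraries were all above the PRGL493 libraries in 26 genes (background 27.3%) and all below in 6 (background 28.8%). Leaving out each library in turn, 19 of the 25 and 2 of the 3 calls held in every fit, and the number called lower was 5 without knockdown replicate 1 or 2.

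The largest positive differences were those of the APC/C group: UBE2C at 0.52 ± 0.07 (SE, adjusted p = 1.8e-05), PTTG1 at 0.51 ± 0.07 (SE, adjusted p = 1.9e-05) and CDC20 at 0.49 ± 0.06 (SE, adjusted p = 5.9e-06). The 3 groups of each gene stood in the order PRGL493, control, knockdown, without overlap, and without knockdown replicate 2 the differences were 0.43, 0.43 and 0.42, all still called. These 3 were not the largest in every fit. Without that replicate CENPE was above them, at 0.464. With the trend of fold change with transcript length removed, UBE2C, PTTG1 and CDC20 were at 0.336, 0.359 and 0.415, below CENPE at 0.424. All 5 of the cyclin group were higher in the knockdown, from 0.15 for CCNA2 to 0.41 for CDC25C, with CCNB1 at 0.32 ± 0.05 (SE, adjusted p = 5.1e-05), CCNB2 at 0.23 and CDK1 at 0.21. All 3 mitotic kinases were higher, AURKA by 0.18, PLK1 by 0.28 and NEK2 by 0.43 ± 0.07 (SE, adjusted p = 3.9e-05). BUB1B and TTK were higher by 0.20 and 0.32, as were CENPA by 0.27, HJURP by 0.18, NDC80 by 0.28 and NUF2 by 0.24. So were KIF20A by 0.25, KIF2C by 0.27, KIF4A by 0.26, DLGAP5 by 0.36, HMMR by 0.32, ECT2 by 0.28 and TOP2A by 0.20. AURKB was higher by 0.18 ± 0.07 (SE, adjusted p = 0.04).

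Lower in the knockdown than under PRGL493 were INCENP at -0.49 ± 0.07 (SE, adjusted p = 1.4e-05), GTSE1 at -0.28 ± 0.06 (SE, adjusted p = 0.00064) and CEP55 at -0.15 ± 0.05 (SE, adjusted p = 0.02). The passenger complex was thus split 3 ways, with AURKB higher, INCENP lower and BIRC5 not called at -0.04. BUB1, SPC25, KIF11, KIF14, KIF23, TPX2, NUSAP1, PRC1, ASPM, RACGAP1, ANLN, CENPE, CENPF and MKI67 were not called either, between -0.47 for MKI67 and 0.32 for CENPE. The calls of AURKB, CCNA2, CENPA, CEP55, CDK1, HJURP and HMMR did not hold in every fit that left out 1 library. AURKB lost its call without any 1 control or PRGL493 library or knockdown replicate 2 (adjusted p up to 0.22). CCNA2 lost it without knockdown replicate 2 or PRGL493 replicate 1 or 2 (up to 0.11), CENPA without knockdown replicate 2 or PRGL493 replicate 2 (up to 0.091), and CEP55 without knockdown replicate 3 or PRGL493 replicate 1 or 3 (up to 0.092). CDK1 and HMMR lost it without PRGL493 replicate 1 (0.068 and 0.059), and HJURP without knockdown replicate 3 (0.052). Without knockdown replicate 2, CENPE (0.46), KIF14 (0.31) and CENPF (0.20) and ANLN (0.14) were called higher and MKI67 (-0.27) and SPC25 (-0.17) lower, and without knockdown replicate 1, ASPM (-0.29) and KIF11 (-0.14) lower.

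Counted over the 3 comparisons, 17 genes were higher in the knockdown than in both other groups and not called under PRGL493, among them CCNB1, PLK1, AURKA, CDC20 and TOP2A. Another 8 were called higher in both treatments with no call between them: BIRC5, BUB1, SPC25, KIF23, NUSAP1, PRC1, RACGAP1 and ANLN. CCNA2, AURKB, HJURP and KIF4A were called higher in both treatments and higher in the knockdown than under PRGL493. GTSE1 was called higher in both and lower in the knockdown than under PRGL493. PTTG1 was the 1 gene of the 43 called in opposite directions. How often these patterns occur among all tested genes was not counted, so the counts have no background. Of the 29 genes with TTTGAA or TTCGAA in the window 19 rose in the knockdown, and of the 8 with neither 7 rose. Other forms of the CHR were not searched, so the 8 may hold one. Under PRGL493, 11 of the 29 rose and 2 fell, against 2 and 1 of the 8. These counts were not tested.

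**Figure D4:**
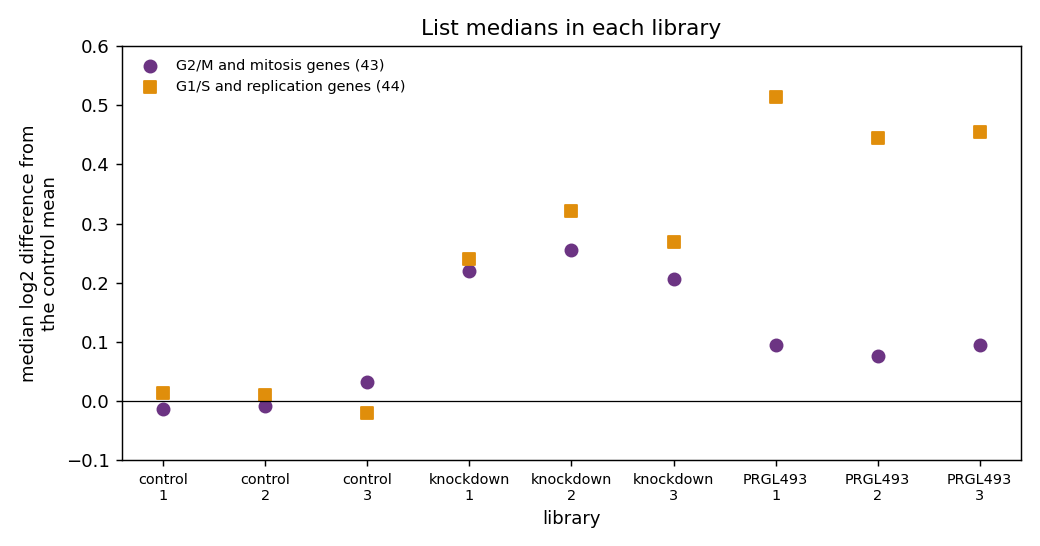
Median log2 ratio to the control mean over the 43 G2/M and mitosis genes and over 44 G1/S and replication genes, in each of the 9 libraries (points). The mitosis genes lie between 0.21 and 0.26 in the knockdown and between 0.08 and 0.10 under PRGL493, and the G1/S genes between 0.24 and 0.32 and between 0.44 and 0.51.

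The G1/S and replication genes, 44 genes of the phase that comes before, were read the same way. Of these 33 rose and 0 fell in the knockdown (median 0.29; at an unadjusted p under 0.05 edgeR gave 37 and 1), and 39 rose and 1 fell under PRGL493 (median 0.47). Between the treatments 4 were higher in the knockdown and 23 lower, with a median of -0.18, where the mitosis genes had a median of 0.20. Called in either direction were 75% of the 44 in the knockdown, 90.9% under PRGL493 and 61.4% between the treatments. Over all tested genes these shares were 30.1, 41.8 and 50.4%. In single libraries the median of the mitosis genes relative to the control mean was 0.22, 0.26 and 0.21 in the knockdown and 0.10, 0.08 and 0.10 under PRGL493. That of the G1/S genes was 0.24, 0.32 and 0.27 in the knockdown and 0.51, 0.44 and 0.45 under PRGL493. The libraries of the 2 treatments did not overlap for either list.

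The factors that transcribe the G2/M genes were taken from a list of 17. In the knockdown 4 of the 17 rose and 1 fell (median 0.03), under PRGL493 5 rose and 1 fell (0.09), and between the treatments 3 were higher and 4 lower in the knockdown. Taken in either direction, these counts were near those of all tested genes. Of all tested genes 30.1% were called in the knockdown, 41.8% under PRGL493 and 50.4% between the treatments. The same shares are the background of the lists that follow. MYBL2 stood at 65.1, 68.04 and 64.3 CPM in control, 105, 116 and 103 CPM in knockdown and 68.4, 71.1 and 68.3 CPM in PRGL493 libraries. MYBL2 encodes B-MYB, the MuvB partner that activates late genes. It rose in the knockdown by 0.71 ± 0.06 (SE, adjusted p = 8.5e-08), was at 0.07 (adjusted p = 0.33) under PRGL493, and differed between the treatments by 0.64 ± 0.06 (SE, adjusted p = 1.5e-07). FOXM1 stood at 77.6, 78.5 and 77.8 CPM in control, 86.1, 82.1 and 88.6 CPM in knockdown and 89.6, 88.6 and 84.97 CPM in PRGL493 libraries. FOXM1 was at 0.14 (adjusted p = 0.06) in the knockdown and called higher under PRGL493 at 0.17 (adjusted p = 0.015). Neither result held in every fit that left out 1 library. FOXM1 was called in the knockdown without knockdown replicate 2 (adjusted p = 0.015). Its call under PRGL493 was lost without PRGL493 replicate 1 or 2 (up to 0.080). In the knockdown TFDP1, the dimer partner of E2F factors, fell, at -0.20 (adjusted p = 0.0049), and LIN52, a MuvB subunit, rose by 0.31 (adjusted p = 0.024), which was lost without any 1 control library or knockdown replicate 1 (up to 0.093). Under PRGL493 the repressor E2F5 fell, at -0.74 ± 0.07 (SE, adjusted p = 6.1e-07), and the pocket proteins RBL1 and RBL2 rose by 0.48 (adjusted p = 2.5e-05) and 0.21 (adjusted p = 0.0089); RBL2 was not called without control replicate 1 (0.055). For E2F5 the difference between the treatments was 0.83 (adjusted p = 9.2e-08) and for RBL1 -0.53 (adjusted p = 5.3e-06).

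Of 20 genes that control entry into mitosis, 9 rose and 3 fell in the knockdown (median 0.19) and 8 rose and 5 fell under PRGL493 (0.04). CDKN1A stood at 281, 273 and 272 CPM in control, 139, 169 and 157 CPM in knockdown and 246, 236 and 234 CPM in PRGL493 libraries. CDKN1A encodes p21, an inhibitor of cyclin-dependent kinases, and fell in the knockdown, at -0.83 ± 0.06 (SE, adjusted p = 2.3e-08), further than under PRGL493 at -0.21 (adjusted p = 0.011), with a difference of -0.62 (adjusted p = 3.3e-07). GADD45A, a stress gene that inhibits CDK1, fell in both, at -1.74 (adjusted p = 3.6e-13) and -1.44 (adjusted p = 6.2e-12). WEE1 stood at 62.02, 59.5 and 54.99 CPM in control, 70.5, 60.3 and 64.1 CPM in knockdown and 50.4, 49.96 and 51.4 CPM in PRGL493 libraries. WEE1, the kinase that holds CDK1 inactive, was at 0.14 (adjusted p = 0.1) in the knockdown and called lower under PRGL493 at -0.22 (adjusted p = 0.014), and the treatments differed by 0.36 (adjusted p = 0.00021). In the knockdown WEE1 was called higher without knockdown replicate 2 (adjusted p = 0.012), and under PRGL493 its call was lost without control replicate 1 or 2 (up to 0.078). CDC25A, a phosphatase that activates cyclin-dependent kinases, rose by 0.49 (adjusted p = 0.00014) and 0.44 (adjusted p = 0.00025).

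Of 34 further kinetochore and checkpoint genes 13 rose and 1 fell in the knockdown (median 0.13), 14 rose and 5 fell under PRGL493 (0.08), and 12 were higher and 8 lower between them. In the knockdown DSN1 of the MIS12 complex rose by 0.42 (adjusted p = 3.6e-05), CENPL of the inner kinetochore by 0.52 (adjusted p = 4e-04) and MAD2L1, the checkpoint protein MAD2, by 0.37 (adjusted p = 0.00051). Under PRGL493 DSN1 and CENPL rose as well, by 0.266 (adjusted p = 0.0013) and 0.565 (adjusted p = 9.9e-05), and MAD2L1 was at -0.04. There ZWINT, an outer kinetochore protein, rose by 0.54 (adjusted p = 2.5e-06), CENPN by 0.49 (adjusted p = 4.8e-05) and CENPO by 0.50 (adjusted p = 5.7e-05). ZWINT and CENPN also rose in the knockdown, by 0.27 (adjusted p = 0.0028) and 0.23 (adjusted p = 0.024), and CENPO was at 0.09 (adjusted p = 0.42). The knockdown call of CENPN was lost without control replicate 2 or 3 or knockdown replicate 3 (up to 0.12). Of 18 subunits and regulators of APC/C 5 rose and 0 fell in the knockdown (median 0.11, with 7 and 1 at an unadjusted p under 0.05). Under PRGL493 5 rose and 2 fell (0.06). Called in either direction were 27.8% and 38.9%, about as many as over all tested genes. Of all tested genes 14.7% were called higher and 15.3% lower in the knockdown. FBXO5, an inhibitor of APC/C, rose in both, by 0.31 (adjusted p = 0.0032) and 0.43 (adjusted p = 0.00014). The subunit ANAPC13 fell under PRGL493, at -0.37 (adjusted p = 0.00023), while ANAPC2 rose by 0.44 (adjusted p = 7.5e-05). ANAPC13 was called higher in the knockdown, a call lost without control replicate 2 or 3 or knockdown replicate 1 (adjusted p up to 0.082). In the knockdown CDC23 rose by 0.24 (adjusted p = 0.004) and ANAPC1 by 0.21 (adjusted p = 0.01), the latter lost without control replicate 1 or knockdown replicate 3 (up to 0.056). Of 33 further spindle, kinesin and cytokinesis genes 15 rose and 2 fell in the knockdown (median 0.15) and 16 rose and 3 fell under PRGL493 (0.15). KIF18A, a kinesin that damps chromosome movements, rose in the knockdown by 0.44 (adjusted p = 6.5e-05) and was at 0.03 (adjusted p = 0.72) under PRGL493, while KIF18B rose in both, by 0.56 (adjusted p = 7.6e-05) and 0.48 (adjusted p = 0.00017). MELK rose in the knockdown by 0.31 (adjusted p = 0.00039). Under PRGL493 TACC3, a spindle protein, rose by 0.37 (adjusted p = 0.00016) and MYH9, the heavy chain of a non-muscle myosin, by 0.51 (adjusted p = 4.6e-05).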

How the data were processed

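The deposited table holds the authors' expected counts per gene symbol and library, not scaled for depth. The genome build was GRCh38, per the submitters' processing notes. An aligner, a counting tool and an annotation release were not given in the sources used here. Of the values 10.5% were not whole; they were rounded, which differs from the whole counts that the design had assumed. In 28 rows the symbol had become a date; these stayed in the totals. No read was counted in 6932 rows. All 9 count columns were used and 0 left out. Groups come from the sample titles. edgeR 4.0.16 (R 4.3.3, limma 3.58.1) was run with TMM factors, filterByExpr and a robust quasi-likelihood fit of 3 group means over all 9 libraries (6 residual degrees of freedom, biological coefficient of variation 6.38%), with Benjamini-Hochberg adjustment over the 14135 genes that passed the filter. The script was tested on simulated data. List medians and length deviations of single libraries use log2 CPM with a prior count of 2. Log ratios of single genes by transcript length use CPM without a prior count. Alternatives were other scalings, DESeq2 1.42.0, other filters (none, or 1 CPM in 3 libraries), only the 2 groups compared, a replicate block, removal of the trend of fold change with transcript length, and leaving out each library. Lengths are of 1 principal transcript per gene in GENCODE 29. Positions and overlaps are of whole genes there, and promoters are RefSeq windows on GRCh38.p14. Values in every library are given for the genes with the smallest adjusted p of each role group in each treatment, those with opposite calls, those with the largest changes and the 4 with the smallest adjusted p between treatments; of each other list, up to 3 called genes per treatment are named. The members, lists and this rule were chosen with earlier results of these data known.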

Additional observations from a re-analysis of the deposited data

How the results depend on the processing

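All 43 genes kept the direction of every called change under all alternatives run: of 2322 values of single genes under alternatives, 2168 kept their side of the threshold, 84 lost a call and 70 gained one; 25 of the 2168, none of them called, changed sign. Knockdown against control: the median of 0.25 was 0.284 with library totals alone, 0.282 with upper-quartile factors, and 0.222 with the trend of transcript length removed, also with the replicate block; leaving out 1 library gave medians of 0.225 to 0.267, 27 to 32 genes called higher and 0 lower. PRGL493 against control: the 3 genes called lower became 6 with upper-quartile factors, with the 1 CPM filter and with the length trend removed, 5 with DESeq2 and with the trend and block, and 8 with only these 2 groups fitted; leaving out 1 library gave 2 to 7. With upper-quartile factors 14 were higher beside these 6. The median of 0.09 was 0.067 with upper-quartile factors and 0.061 with the length trend removed, also with the block (0.064 to 0.091 leaving out 1 library, with 12 to 17 called higher). Knockdown against PRGL493: the 3 called lower became 5 with the length trend removed, also with the block (2 to 5 leaving out 1 library), and the median of 0.20 was 0.250 with upper-quartile factors (0.179 to 0.213 leaving out 1 library, with 21 to 26 called higher). The E2F-type core was in 18.9% of the promoters from 100 bases before to 50 after the start. Over all tested genes the share of knockdown calls that were higher was 49%, 59.8% with library totals and 58.7% with upper-quartile factors. Deviations from the group mean correlated from -0.295 to 0.225 between same-numbered libraries, and not every library correlated best with its own number. These deviations sum to 0 within each group of 3, so the correlations cannot decide whether a number marks a shared batch. A fit with the replicate block called 28 higher and 0 lower in the knockdown (median 0.249). It called 14 and 3 under PRGL493 (0.088) and 23 and 3 between the treatments (0.195). The lowest count of a member, 274 for CENPA in 1 library, carries a counting error about as large as the biological coefficient of variation.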

Other observations

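Genes of condensin and cohesin, the ring complexes that fold chromosomes and hold sister chromatids together, were read beside the 43 mitosis genes, with no test between the lists. Of 20 such genes 5 rose and 2 fell in the knockdown (median log2 fold change 0.04), 10 rose and 0 fell under PRGL493 (0.19; the same counts at an unadjusted p under 0.05), and between the treatments 2 were higher and 11 lower in the knockdown (-0.19). Called in either direction were 7, 10 and 13 of the 20, against 30.1, 41.8 and 50.4% of all tested genes. CDCA5, which encodes sororin, a protector of cohesion, rose in both, by 0.48 (adjusted p = 1.4e-05) in the knockdown and 0.70 (adjusted p = 9.7e-08) under PRGL493, and the treatments differed by -0.23 (adjusted p = 0.0038). NCAPH, a condensin subunit, rose by 0.61 (adjusted p = 5.3e-07) under PRGL493 and differed between the treatments by -0.42 (adjusted p = 1.9e-05). NCAPH was also called higher in the knockdown, a call lost without control replicate 1 or 3 or knockdown replicate 3 (adjusted p up to 0.092). NCAPD3, of the second condensin complex, rose in both, by 0.24 (adjusted p = 0.0029) and 0.48 (adjusted p = 2.7e-06). NCAPG, a condensin subunit, rose in the knockdown by 0.26 (adjusted p = 0.0022) and was at 0.06 (adjusted p = 0.42) under PRGL493. CDKN1B, which encodes the inhibitor p27, rose by nearly the same amount in both treatments, from 34.7, 35.8 and 36.7 CPM in control to 57.2, 59.03 and 59.1 CPM in knockdown and 58.8, 57.4 and 62.3 CPM in PRGL493 libraries, while CDKN1A, for the related inhibitor p21, fell in both. These p-values are from edgeR, adjusted over all tested genes, and the lists were described and not tested as sets.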
